A study of Caenorhabditis elegans with 14 samples.

Results

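The tRNA genes with many short reads are the 158 listed tRNA genes whose mean count over both small RNA libraries was at least 50, out of 612 listed tRNA genes and 16641 listed transcripts in all. Both libraries are of whole young adults of the nematode Caenorhabditis elegans, strain N2 (wild type). One group was fed bacteria that express double-stranded RNA against snpc-4 (snpc-4 RNAi), and the other bacteria with the empty vector L4440 (control RNAi). The labels give differing larval stages for the start of feeding. SNPC-4 is the worm counterpart of a subunit of the SNAP complex, a factor of snRNA gene promoters. The series has 14 samples, of which these 2 libraries are used here. Each group has 1 library, so nothing here has a replicate check or a p-value, and every statement compares 2 libraries. Depletion of snpc-4 itself was not analysed here, since only small RNA classes are listed.

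Transfer RNAs carry amino acids to the ribosome, and each kind is encoded by many copies scattered over the genome. Their genes are transcribed by RNA polymerase III from promoter boxes that lie inside the gene. Mature tRNAs are also cut into short fragments, which small RNA libraries pick up. Leucine and serine tRNAs carry a long variable arm that makes their genes longer than most. The stated insert range was 22 to 30 nucleotides, while the 158 genes are annotated at 70 to 115 bases, so a read covers only part of a gene. Whether every read comes from the tRNA itself was not tested, and 124 of the 158 genes overlap another annotated gene. The annotation used here, RefSeq assembly WBcel235, matched all 612 tRNA genes but names neither their amino acid nor their anticodon, so blocks are called by their most abundant gene.

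The 158 genes were chosen on the mean of both counts, so their abundance is a description. They held 59860 counts in snpc-4 RNAi and 53689 in control RNAi, which is 91.5% of all tRNA counts in snpc-4 RNAi and 90.5% in control RNAi, and 5.57% of all listed counts in snpc-4 RNAi and 5.61% in control RNAi. In RPM (reads per 1000000 reads of the library total, which was 20875010 reads in snpc-4 RNAi and 20413480 in control RNAi) the members' sum was 2868 in snpc-4 RNAi and 2630 in control RNAi, a ratio of 1.09 (exact 95% interval 1.08 to 1.10). With the sum of listed counts or of microRNA counts as the scale, it lay below 1. Intervals here reflect counting error alone; reads were amplified by PCR and carry no molecular identifiers, so the intervals can be too narrow. The median gene had a mean of 134 counts and 98 genes had a mean of at least 100. Just inside the limit of 50 were F57G8.t3 (39 counts in snpc-4 RNAi and 63 in control RNAi), T15B12.t1 (38 in snpc-4 RNAi and 64 in control RNAi) and E01H11.t1 (40 in snpc-4 RNAi and 61 in control RNAi). Just outside were F14B8.t1, Y43F4A.t2 and ZK507.t1, with 50, 40 and 41 counts in snpc-4 RNAi and 48, 58 and 57 in control RNAi. Of the 454 other tRNA genes, 175 had a mean of at least 10 counts, 180 a lower one and 99 had no count in either library.

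Sorted by mean, the counts formed steps rather than a smooth slope at the high end. A gene was put in a block with others if both of its counts lay within 10% of the block's running means. This gave 50 blocks, 31 of 2 or more genes with 139 genes together, and 19 of a single gene. The 5 highest blocks, with 28 genes, held 73.6% of the members' counts in snpc-4 RNAi and 70.2% in control RNAi. Near-equal genes may be copies that share reads. The 5 highest blocks were each of a single annotated length, but 19 of the 31 blocks of several genes mixed lengths. No source used here says how a read that matches several copies was assigned. Changes are therefore given per block, from summed counts. If each read was counted at every copy it matches, the sums count it repeatedly and their intervals are too narrow.

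**Figure D1:**
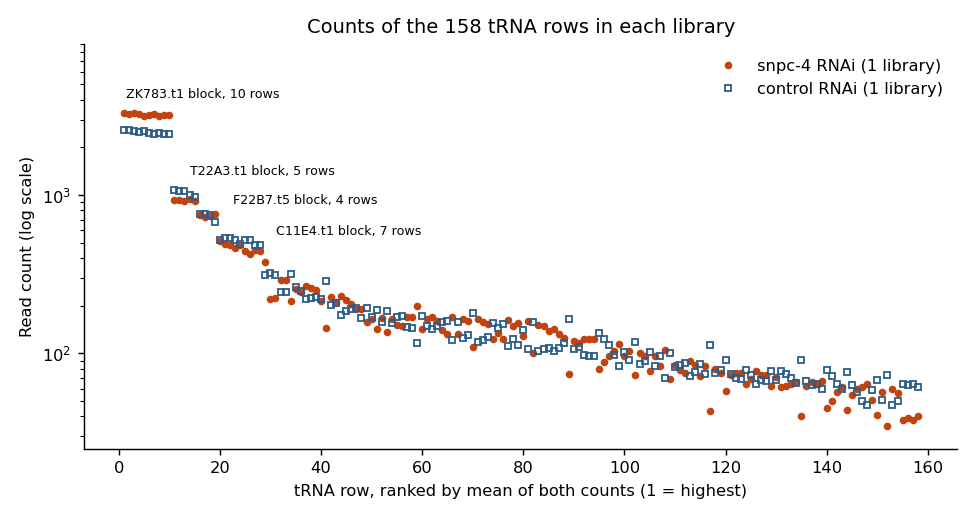
Read counts (log scale) of the 158 tRNA genes ranked by their mean, with filled circles for snpc-4 RNAi and open squares for control RNAi, 1 library each. The first 10 genes stand at 3137 to 3310 counts in snpc-4 RNAi and 2419 to 2583 in control RNAi, followed by steps of 5, 4 and 7 genes; below about 300 counts no steps are visible.

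The most abundant block, led by ZK783.t1, was higher in snpc-4 RNAi and held 53.8% of the members' counts there and 46.5% in control RNAi. Its 10 genes had, in snpc-4 RNAi, 3310 counts for ZK783.t1, 3286 for Y22D7AL.t4, 3275 for M01E10.t2, 3245 for C39D10.t2, 3231 for Y53C10A.t3, 3191 for F52E10.t3, 3183 for M02F4.t2, 3182 for F52E10.t4, 3176 for F52E10.t5 and 3137 for K02B12.t1. In control RNAi they had 2583 for ZK783.t1, 2523 for Y22D7AL.t4, 2509 for M01E10.t2, 2569 for C39D10.t2, 2427 for Y53C10A.t3, 2447 for F52E10.t3, 2419 for M02F4.t2, 2482 for F52E10.t4, 2467 for F52E10.t5 and 2532 for K02B12.t1. Every count in snpc-4 RNAi exceeded every count in control RNAi, a gap that the block rule favours. Together they had 1543 RPM in snpc-4 RNAi and 1223 RPM in control RNAi, a ratio of 1.26 (1.24 to 1.28), above 1 under all 4 other scalings. With the mean count of a single gene in place of the sum, the interval was 1.20 to 1.33. The ratios of the 10 genes ran from 1.21 to 1.30. All 10 genes are annotated at 72 bases, a property the blocks did not use, and they lie on 3 chromosomes. The variance of their counts divided by the mean was 0.989 in snpc-4 RNAi and 1.30 in control RNAi, where counting error alone gives about 1. It was 0.195 in snpc-4 RNAi and 1.90 in control RNAi for the T22A3.t1 block described next, and the 10% limit itself bounds it. With the limit of a block set by counting noise (2 times the square root of its running mean), the 10 genes split into 4 and 6, each with a ratio of 1.26.

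This block set the direction of the total. Without it, the other 148 genes had 1324 RPM in snpc-4 RNAi and 1407 RPM in control RNAi, a ratio of 0.941 (0.925 to 0.957). By the median ratio of all transcripts it was above 1. The median log2 ratio over all 158 genes, with 1 read added to each count, was -0.0097. Higher values were seen for 78 genes and lower values for 80. Of all 397 listed transcripts that passed the same limit, tRNAs included, 156 were higher and 241 lower by RPM. Of those 241 lower ones, 111 were piRNAs. The split of the 158 genes was 51 and 107 on the scale of listed counts and 43 and 115 on that of microRNA counts. It was 132 and 26 by the median ratio of all transcripts, which shifts every log2 ratio by 0.43. That median includes the piRNAs. With piRNAs left out of it, the split was 80 and 78 and the shift 0.014. The split of all 397 on these other scales was not analysed.

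The next steps were slightly lower in snpc-4 RNAi or near 1. The T22A3.t1 block holds 5 genes annotated at 71 bases on 5 chromosomes. In snpc-4 RNAi there were 935 counts for T22A3.t1, 930 for B0244.t1, 916 for T03G6.t1 and 918 for ZC132.t1. In control RNAi there were 1070 for T22A3.t1, 1058 for B0244.t1, 1060 for T03G6.t1 and 967 for ZC132.t1. The 2 libraries did not overlap, which the block rule favours. The block's ratio was 0.881 (0.846 to 0.917), above 1 by the median ratio of all transcripts. From a single gene's mean count the interval was 0.806 to 0.964.

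The F22B7.t5 block holds 4 genes of 72 bases, with 749 counts for F22B7.t5, 730 for B0212.t1, 741 for Y59E1B.t2 and 761 for ZK617.t1 in snpc-4 RNAi. In control RNAi F22B7.t5 had 756, B0212.t1 had 758, Y59E1B.t2 had 744 and ZK617.t1 had 679. The libraries overlapped, and the ratio was 0.993 (0.943 to 1.04), above 1 by either median ratio. The C11E4.t1 block holds 7 genes of 72 bases (C11E4.t1, Y7A9D.t2, C52E12.t3, T18D3.t1, M03A1.t2, F15B9.t1 and C56G3.t1), with 445 to 511 counts in snpc-4 RNAi (median 482) and 486 to 539 in control RNAi (median 519). Its ratio was 0.903 (0.861 to 0.947), and each of the 7 genes was lower, which the block rule favours. From a single gene's mean count the interval, 0.795 to 1.02, included 1. F48E3.t1 and F34H10.t1, also of 72 bases, formed a block of their own just below it, with 422 and 446 counts in snpc-4 RNAi and 518 and 485 in control RNAi, a ratio of 0.846 (0.772 to 0.928). Taken as 1 step, these 9 genes had a ratio of 0.891 (0.854 to 0.929). The last 2 blocks, like the T22A3.t1 block, lay above 1 by the median ratio of all transcripts.

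Below these steps, the F08G5.t3 block stood out by a lower ratio in 3 genes on 3 chromosomes, all of 72 bases. F08G5.t3 had 221 counts in snpc-4 RNAi and 322 in control RNAi, T03E6.t1 had 213 in snpc-4 RNAi and 318 in control RNAi, and H35N09.t2 had 224 in snpc-4 RNAi and 313 in control RNAi. The libraries did not overlap, which the block rule favours. The ratio was 0.675 (0.610 to 0.746), below 1 under all 4 other scalings and just short of a 1.5-fold difference; from a single gene's mean count the interval was 0.564 to 0.802. Genes of nearly the same mean had other ratios. In the Y105C5A.t2 block, Y105C5A.t2, T02G6.t1, C53C7.t2, T07H6.t2 and B0491.t2 had 252 to 290 counts in snpc-4 RNAi and 221 to 246 in control RNAi, a ratio of 1.14 (1.06 to 1.24), which on the scale of microRNA counts was below 1; from a single gene's mean count the interval, 0.959 to 1.37, included 1. Of its 5 genes 3 are annotated at 72 bases and 2 at 82, so near-equal counts join genes of unlike length there.

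Some genes annotated at 73 bases, grouped by their counts, were higher in snpc-4 RNAi. The C16C8.t1 block has 9 genes (C16C8.t1, M01E5.t1, K07C10.t1, B0244.t3, W03G11.t1, K01A11.t1, C17D12.t1, F39B1.t2 and F15D3.t1), of which 8 are of 73 bases and B0244.t3 of 70. They had 148 to 171 counts in snpc-4 RNAi (median 160) and 112 to 130 in control RNAi (median 122). The libraries did not overlap, which the block rule favours. The ratio was 1.29 (1.19 to 1.40), above 1 under all 4 other scalings. From a single gene's mean count the interval was 1.01 to 1.65. W10G11.t1, M163.t2 and W09G10.t2, all of 73 bases, formed a neighbouring block, named after its values were seen. It had 148 to 161 counts in snpc-4 RNAi and 103 to 106 in control RNAi, a ratio of 1.43 (1.24 to 1.66). Its interval from a single gene's mean count was 1.11 to 1.86. With the limit set by counting noise, a single block led by F47E1.t3, a gene of 115 bases with the highest ratio of all members, took 15 genes with a ratio of 1.34 (1.26 to 1.43). Its 13 genes of 73 bases alone, picked out by length after the data were seen, had a ratio of 1.31 (1.23 to 1.40). The rule joins genes of like counts in both libraries, so like ratios within a block are built in. These intervals do not allow for that choice.

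Other genes of 73 bases had lower counts in snpc-4 RNAi. C16D9.t3 had 74 counts in snpc-4 RNAi and 165 in control RNAi, a ratio of 0.439 (0.329 to 0.580). W06D4.t1 had 35 in snpc-4 RNAi and 73 in control RNAi, a ratio of 0.469 (0.304 to 0.711). F52H2.t2 and K02E2.t1, a block of their own, had 45 and 44 counts in snpc-4 RNAi and 79 and 76 in control RNAi, a ratio of 0.561 (0.428 to 0.733). Over all 36 members of 73 bases, 21 were higher and 15 lower, and the ratios ran from 0.439 to 1.49. Annotated length therefore does not fix the ratio. Of the 80 members of 72 bases outside the ZK783.t1 block, 27 were higher (33.75%) and 53 lower (66.25%). Their total ratio was 0.900 (0.880 to 0.920), above 1 by the median ratio of all transcripts. Of all 397 listed transcripts that passed the same limit, 39.3% were higher and 60.7% lower by RPM. A majority of lower values was therefore not particular to these 80 members. For the 36 members of 73 bases the shares were 58.3% higher and 41.7% lower.

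**Figure D2:**
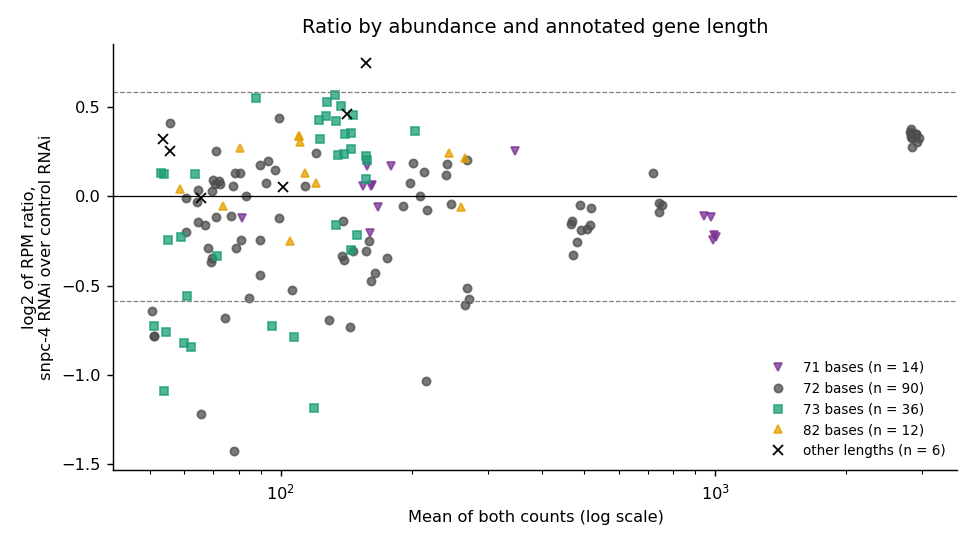
log2 of the RPM ratio of snpc-4 RNAi over control RNAi for each of the 158 tRNA genes against the mean of both counts (log scale), with symbols for annotated gene length and dashed lines at a 1.5-fold difference. The 72-base genes at the right end lie near 0.34, and 73-base genes lie both near the upper dashed line and below the lower one.

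Other blocks of 5 or more genes lay on both sides of 1. The K03B8.t1 block has 4 genes of 72 bases (H08J11.t5, H08J11.t3, Y49E10.t1 and R09E10.t1) and 3 of 73 (K03B8.t1, F59C12.t3 and F21A3.t2), with 124 to 140 counts in snpc-4 RNAi and 140 to 161 in control RNAi. Its ratio was 0.835 (0.764 to 0.913), above 1 by the median ratio of all transcripts; from a single gene's mean count the interval, 0.658 to 1.06, included 1. In the R04E5.t6 block of 5 genes, R04E5.t6, Y39G10AL.t1 and F17H10.t1 are of 71 bases and B0228.t1 of 72. These 4 genes had 148 to 166 counts in snpc-4 RNAi and 156 to 172 in control RNAi, which overlap. The block had a ratio of 0.948 (0.859 to 1.05), above 1 by the median ratio of all transcripts. Blocks of 5 genes led by C30E1.t1, K03F8.t1 and F36D4.t1, named after their values were seen, had ratios of 1.11 (1.00 to 1.23), 1.17 (1.04 to 1.32) and 1.19 (1.00 to 1.41), the first below 1 on the scale of microRNA counts. From a single gene's mean count all 3 intervals included 1. Also named after their values were seen, the K02D7.t1 and T25E4.t1 blocks of 5 genes had ratios of 0.901 (0.782 to 1.04) and 0.812 (0.697 to 0.946). Both were above 1 by the median ratio of all transcripts. The F28F8.t3 block of 6 genes was at 1.00 (0.866 to 1.16) and the Y7A5A.t5 block of 8 genes at 1.01 (0.902 to 1.14). On a single gene's mean count the intervals of these blocks all included 1. The 12 members of 82 bases had a total ratio of 1.10 (1.03 to 1.18), which on the scale of microRNA counts was below 1. Of these 12, 9 were higher and 3 lower, with T02G6.t1 at 289 counts in snpc-4 RNAi and 243 in control RNAi and K11H3.t1 at 97 in snpc-4 RNAi and 113 in control RNAi.

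Differences of at least 1.5-fold were few and mostly downward. Of the 158 genes, 1 was at least 1.5-fold higher in snpc-4 RNAi and 18 at least 1.5-fold lower. Over all 397 listed transcripts that passed the same limit of 50 counts, tRNAs included, the shares were 4.03% higher and 31.2% lower. Of the 124 transcripts behind that 31.2%, 101 were piRNAs, 18 these tRNA genes and 5 snoRNAs. None of the 30 snRNAs and 50 microRNAs was at least 1.5-fold lower. By the median ratio of all transcripts, 49 of the 158 genes were at least 1.5-fold higher and 5 at least 1.5-fold lower. Shares of all 397 on that scale were not analysed, and the shares above, by RPM, do not apply to it. With piRNAs left out of that median the counts were 1 and 18, and shares were likewise not analysed. By RPM, none of the 158 was at least 2-fold higher and 5 were at least 2-fold lower, against 3.27% and 22.7% of all 397. Of the 90 transcripts behind that 22.7%, 84 were piRNAs and 5 these tRNA genes. The 5, named after their values were seen where the naming rule did not take them, were Y40H7A.t2, Y57G11C.t1, C16D9.t3, W06D4.t1 and C10G8.t1 (144 counts in snpc-4 RNAi and 288 in control RNAi). Of the 18 lower genes 12 had a mean under 100 counts, and none had a mean above 265.5.

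Among blocks, 1 of 50 was at least 1.5-fold higher and 12 at least 1.5-fold lower, and 9 of those 12 were single genes. By the median ratio of all transcripts these counts were 14 and 5, a scale on which the shares of all listed transcripts were not analysed. With piRNAs left out of that median they were 1 and 12. The interval of the ratio lay above 1 for 13 blocks, below 1 for 22 and included 1 for 15. From a single gene's mean count these numbers were 7, 18 and 25. Besides the F52H2.t2 block, the lower blocks of several genes were F27E11.t1 with K02A4.t2, at 80 and 88 counts in snpc-4 RNAi and 135 and 124 in control RNAi (ratio 0.634, 0.519 to 0.773), and the Y38H6A.t1 block. The Y38H6A.t1 block holds Y38H6A.t1, F14B6.t2, F57G8.t3, T15B12.t1 and E01H11.t1, with 38 to 41 counts in snpc-4 RNAi and 61 to 68 in control RNAi, a ratio of 0.599 (0.499 to 0.718). Both mix genes of 72 and 73 bases.

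The highest ratio was that of F47E1.t3, the longest of the 158 genes at 115 bases, with 199 counts in snpc-4 RNAi and 116 in control RNAi (ratio 1.68, 1.33 to 2.13). T06H11.t3 had 105 in snpc-4 RNAi and 70 in control RNAi (1.47, 1.07 to 2.01), and C06G1.t4 had 115 in snpc-4 RNAi and 83 in control RNAi (1.35, 1.01 to 1.82). F10C1.t1 had 380 in snpc-4 RNAi and 311 in control RNAi (1.19, 1.03 to 1.39). These 4 single genes lie above 1 under all 4 other scalings. The lowest ratios belonged to Y40H7A.t2, with 43 counts in snpc-4 RNAi and 113 in control RNAi (0.372, 0.256 to 0.533), and Y57G11C.t1, with 40 in snpc-4 RNAi and 91 in control RNAi (0.430, 0.289 to 0.630). Both lie in the right piRNA domain of chromosome IV, taken here from 13 Mb to the end. The 7 other members in that domain had ratios between 0.845 (Y105C5B.t4, 83 counts in snpc-4 RNAi and 96 in control RNAi) and 1.24 (Y73F8A.t4, 124 in snpc-4 RNAi and 98 in control RNAi). None of the 158 genes overlaps an annotated piRNA gene.

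**Figure D3:**
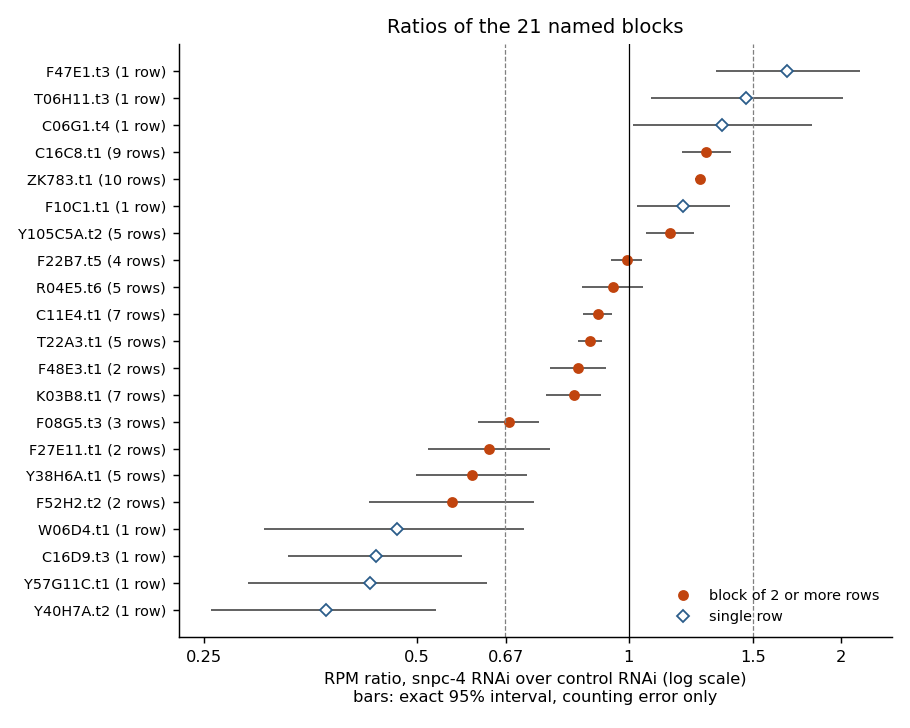
RPM ratio of snpc-4 RNAi over control RNAi (log scale) for the 21 named blocks, with exact 95% intervals that cover counting error only; filled circles are blocks of 2 or more genes, open diamonds single genes, and dashed lines mark a 1.5-fold difference. The ZK783.t1 block has the narrowest interval, 1.24 to 1.28, and the single genes at the bottom lie below 0.5.

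Whether genes of a block are alike beyond their counts was read from annotated length. Each of the 5 blocks of several genes whose mean reached 300 counts was of a single length. Of the 26 such blocks with a lower mean, 7 were of a single length. Pairs of genes within a block had equal length in 67.0% of 306 pairs, against 38.7% of all 12403 pairs of members, and in 54.7% of 223 pairs once the 5 highest blocks were left out. At low counts a range of 10% is narrower than counting error and also holds unrelated genes, so a block there may split copies or join different tRNAs. No sequence of these genes was given for this work, so identity of copies was not analysed here.

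Nearly all members stood in 1 of 2 stretches of the list. Within each chromosome the tRNA genes are listed in 2 runs of ascending position, and no source used here says what separates the runs. The strand of these genes, and whether counting used it, is not given either, so whether the runs are the 2 strands, and whether counts in a run are of sense reads, cannot be told here. Of 298 genes in the first runs, 5 were members (1.68%) and 98 had no count in either library. Of 314 genes in the second runs, 153 were members (48.7%) and 1 had no count. The 5 members in first runs were exactly the T22A3.t1 block. Outside it, no first-run gene had a mean above 48.5 counts, and the median gene had 1 count in each library, against 44 counts in snpc-4 RNAi and 50 in control RNAi in second runs. B0244.t1 of a first run and B0244.t3 of a second run share a clone, with 930 and 166 counts in snpc-4 RNAi and 1058 and 118 in control RNAi. The part of the listing order in the counts was not tested. Without first-run genes (chosen after the data were seen) the members' ratio was 1.11 (1.10 to 1.13).

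**Figure D4:**
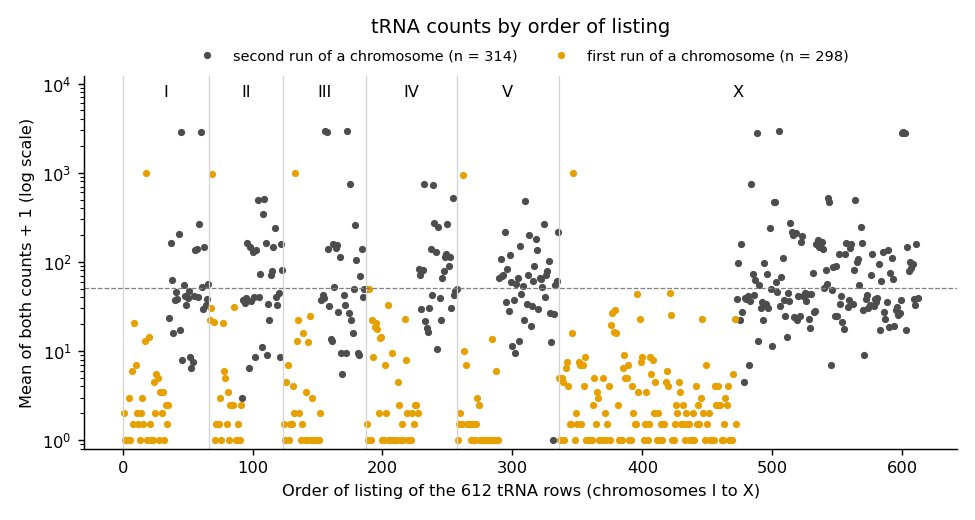
Mean of both counts plus 1 (log scale) of the 612 tRNA genes in their order of listing, chromosomes I to X; grey points are second runs (314 genes), orange points first runs (298 genes), and the dashed line marks a mean of 50. The orange points above the line are the 5 genes of the T22A3.t1 block.

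Members came from all 6 chromosomes, with 67 on X, 30 on V, 17 on IV, 16 on II, 15 on III and 13 on I, out of 277, 78, 70, 57, 64 and 66 listed tRNA genes. Without the ZK783.t1 block, which has genes on I, III and X, the ratios of the chromosome totals ran from 0.854 (0.818 to 0.891) for V to 1.01 (0.966 to 1.06) for II, all above 1 by the median ratio of all transcripts and all below 1 on the scale of listed counts. Members at least 1.5-fold lower numbered 5 of 67 on X, 7 of 30 on V, 3 of 17 on IV, 0 of 16 on II, 1 of 15 on III and 2 of 13 on I, against 18 of all 158 and 31.2% of the 397 listed transcripts. Of the 124 transcripts behind that 31.2%, 101 were piRNAs.

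Set beside other classes at the same limit of 50 counts, the tRNA genes had a median log2 ratio of -0.0097 (158 genes). It was -0.093 for 39 snoRNAs, 0.0083 for 30 snRNAs, 0.18 for 50 microRNAs and -1.27 for 120 piRNAs. The snRNAs did not move as 1 group, as 11 of the 30 were at least 2-fold higher, and their summed counts had a ratio of 1.77 (1.70 to 1.84), against 0 of 158 and 1.09 for the tRNA genes. Those 11 are all named for the clones Y102A5D and ZK218, with log2 ratios of 1.55 to 1.93. ZK218.22, also named for ZK218, was at 0.39. The class is as listed by the submitters, and which kinds of RNA it holds was not analysed. The 11 may be copies that share reads, so 11 of 30 is not a count of independent genes. The share at least 1.5-fold lower was 11.4% of tRNA genes, 12.8% of snoRNAs and 84.2% of piRNAs, and 0 of the snRNAs and microRNAs. The other 454 tRNA genes, below the limit, had 267 RPM in snpc-4 RNAi and 277 RPM in control RNAi, a ratio of 0.965 (0.930 to 1.00). Of the cell markers listed, mir-1 of muscle had 230145 counts in snpc-4 RNAi and 172025 in control RNAi, the mir-35 to mir-42 set of oocytes and embryos had 16 in snpc-4 RNAi and 54 in control RNAi, and lsy-6 and mir-124 of neurons were at 0 in both. In whole animals, fewer cells of a type and less RNA per cell cannot be told apart, and the part of such markers in the tRNA values was not tested.

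**Figure D5:**
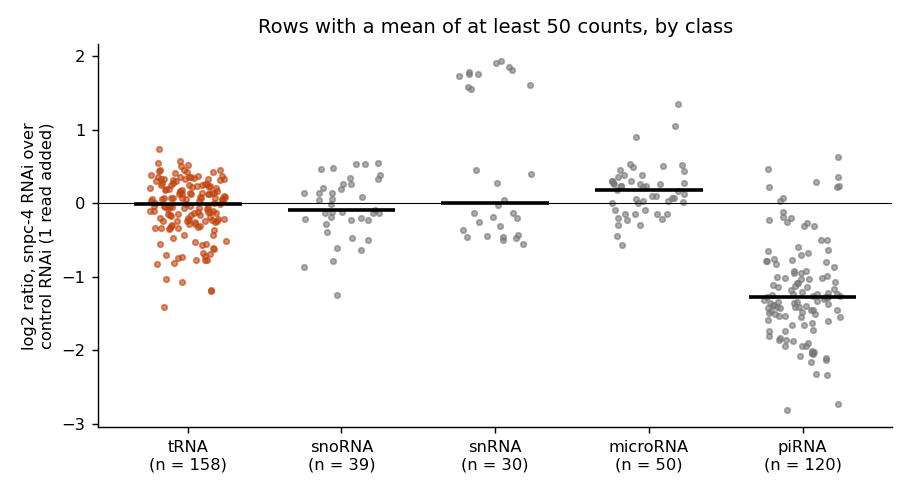
log2 ratio of snpc-4 RNAi over control RNAi, with 1 read added, for every listed transcript whose mean reached 50 counts, by class; each point is 1 transcript and each bar the class median. The tRNA genes centre at -0.0097 and the piRNAs at -1.27.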

How the data were processed

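Small RNA of 1 snpc-4 RNAi and 1 control RNAi library was sequenced from inserts of 22 to 30 nucleotides, per the labels' protocols. The deposited tables give a read count per transcript and a value in RPM, per the file headers. The RPM is the count over 1 constant per library. BWA is the tool named in the submitters' processing notes. Version, build, annotation, strand use and the handling of reads with several matches: not given in the sources used here.

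Genes were matched to RefSeq WBcel235 by locus tag, used for names, annotated length, chromosome and neighbours; no gene coordinates are printed, since the files' build is not known. Of the 158 genes, 124 overlap another annotated gene, so shared reads cannot be told apart. Members, blocks and lists were chosen with earlier results of these data known. Blocks were built from the highest mean down, with a tolerance of 10% in both libraries. Ratios are of RPM with exact conditional binomial intervals at 95%; the median log2 ratio adds 1 read.

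Named were the 10 blocks with the highest summed mean, blocks of 2 or more genes past 1.5-fold, the 4 highest and 4 lowest single genes, and 3 genes on each side of the limit. The planned amino acid and sequence groups could not be made, since no table used here holds them. Library totals behind RPM were 20875010 reads in snpc-4 RNAi and 20413480 in control RNAi, and no source says which reads they count; 1 read is worth 0.0479 RPM in snpc-4 RNAi and 0.0490 in control RNAi, and a floor of 3 counts 0.144 RPM in snpc-4 RNAi and 0.147 in control RNAi. Alternatives changed the scaling (sum of listed counts, sum of microRNA counts, and the median ratio of all transcripts, or of all but piRNAs, whose mean reached 10 counts), the limit, the block rule and the added read. The steps were tested on simulated data with well separated copy groups. These did not cover the low counts of many members, so splitting or joining of blocks there was not tested. The values of 1 gene each of the T22A3.t1 and R04E5.t6 blocks are not reported here. Tools were matplotlib 3.10.9, SciPy 1.17.1, pandas 2.3.3 and NumPy 2.4.6 under Python 3.11.15.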

Additional observations from a re-analysis of the deposited data

How the results depend on the processing

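Of 139 alternative values, 75 differed from the reported one by no more than its interval (for a count, by no more than 1.5 times) and 64 by more; the cause was not tested beyond the shift that each scaling adds to every gene. No paired analysis was possible because each group has 1 library. Under scaling to the listed counts, the microRNA total and the median ratio of all transcripts, the log2 ratio of the members' total was -0.011, -0.076 and 0.55, against 0.12 by RPM, and the median log2 ratio of genes was -0.15, -0.21 and 0.42. The total was 0.15 with a limit of 100 counts, -0.088 without the ZK783.t1 block and 0.15 without first-run genes. Scaled to the microRNA total, 0 blocks and 0 genes were at least 1.5-fold higher, and 12 blocks had a log2 ratio above 0, against 21 by RPM. By the median ratio of all transcripts, 14 blocks and 49 genes were at least 1.5-fold higher, 5 blocks and 5 genes at least 1.5-fold lower, and 35 blocks above 0. With piRNAs left out of that median, 1 block and 1 gene were at least 1.5-fold higher. On that scale 12 blocks and 18 genes were at least 1.5-fold lower, and 22 blocks were above 0. Shares of all listed transcripts under these other scalings were not analysed. The number of blocks was 93 at a tolerance of 5%, 23 at 20%, 14 by the mean alone and 28 by counting noise; in the last 3 cases 0 blocks were at least 1.5-fold higher and 5, 1 and 5 at least 1.5-fold lower. A limit of 20 counts gave 7 blocks at least 1.5-fold higher, and a limit of 100 gave 5 at least 1.5-fold lower. Blocks split by annotated length, a choice made after seeing the data, numbered 74, with 1 higher and 13 lower by 1.5-fold. Single genes near 50 counts have intervals wide enough that a 1.5-fold limit is close to counting error.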

Other observations

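Of 131 clones (the cloned genome segments that give the genes their names) with a member, 22 carry 2 or more members, and in 1 of these 22 all members fell in the same block. That clone, F52E10, carries 3 of the 10 genes of the ZK783.t1 block, with ratios of 1.25 to 1.28. On F47E1, by contrast, F47E1.t3 had 199 counts in snpc-4 RNAi and 116 in control RNAi, F47E1.t2 had 157 in snpc-4 RNAi and 195 in control RNAi, and F47E1.t1 had 110 in snpc-4 RNAi and 179 in control RNAi, so genes of 1 clone had ratios of 0.601 to 1.68. On C06G1, 3 genes of 72 bases had ratios of 0.675 to 1.35. The difference between genes of 1 clone was not tested.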
